A study of Arabidopsis thaliana with 6 samples.

Results

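The genes described here are 10 root hair genes of *Arabidopsis thaliana*: RHD6, RSL4, RHD2, COBL9, LRX1, LRX2, PRP1, PRP3, EXPA7 and EXPA18. They were looked up by their gene identifiers among the 27444 genes of the files, and all 10 were found and passed the filter on low counts. The 10 were chosen with earlier results of these data known, so counts of calls among them are a description, not a test. RNA of whole seedlings was sequenced in 6 libraries, 3 of the double mutant *lon1-2atg5-1* and 3 of its single mutant parent *atg5-1*. Both genotypes are T-DNA insertion lines in the Col-0 background, and both carry *atg5-1*, an insertion in ATG5, which autophagy needs. The double mutant also carries *lon1-2*, an insertion in LON1, a protease of the mitochondrial matrix, so the comparison asks what the loss of LON1 adds where ATG5 is already mutated. A single insertion allele stands for each gene. Seedlings grew under long days in normal conditions, and were 7 days old in the series description and 10 days old in the study's methods. The single mutant *lon1-2* and the wild type were not analysed here.

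A root hair is a tubular outgrowth of a single epidermal cell of the root, and it extends the surface over which the root takes up water and nutrients. Positional cues and a set of patterning genes decide which epidermal cells form a hair. In those cells the basic helix-loop-helix (bHLH) factors RHD6 and RSL1 start hair formation, and RSL4 and RSL2 act after them to drive growth. The hair then grows at its tip, where the NADPH oxidase RHD2 produces reactive oxygen and where new wall is laid down and loosened by structural proteins, cellulose-related proteins and expansins.

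The 6 libraries held 21964283 to 23929531 counts, and the ranges of the genotypes overlapped. LON1 had 196, 126 and 95 counts in *lon1-2atg5-1*, against 671, 528 and 602 in *atg5-1*, with a log2 fold change of −2.10 ± 0.22 (SE). ATG5, whose insertion both genotypes carry, was higher in *lon1-2atg5-1* by 0.98 ± 0.23 on the log2 scale. ATG5 shares 597 exonic bases with AT5G17280, which overlaps it on the opposite strand. Whether the counting used strand is not given, and the part of AT5G17280 in the ATG5 value was not tested. Of 20157 genes tested, 27.7% were called different, which required a fold change over 1.5 and, by the quasi-likelihood test of edgeR, an adjusted p under 0.05.

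Root hair genes were lower in *lon1-2atg5-1*. A call of lower was made for 9 of the 10, against 13.7% of all genes tested, and none was called higher, against 14% of all genes. The median log2 fold change was −1.79 over the 10 genes and −0.0003 over all genes tested. A call with a fall of more than 2-fold was made for 7 of the 10, against 7.51% of all genes, and of more than 4-fold for 2, PRP1 and PRP3, against 2.05%. In each of the 10 genes every *lon1-2atg5-1* library lay below every *atg5-1* library, which held for 30.9% of all genes tested. Summed over the 10 genes, the level was 47.7, 68.7 and 72.4 FPKM (fragments scaled by exon length and by library total) in *lon1-2atg5-1*, against 322, 240 and 249 FPKM in *atg5-1*. The sum therefore differed between genotypes by more than it did among the libraries of either. In whole seedlings, fewer root hair cells and less of these RNAs in each hair cell cannot be told apart.

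**Figure D1:**
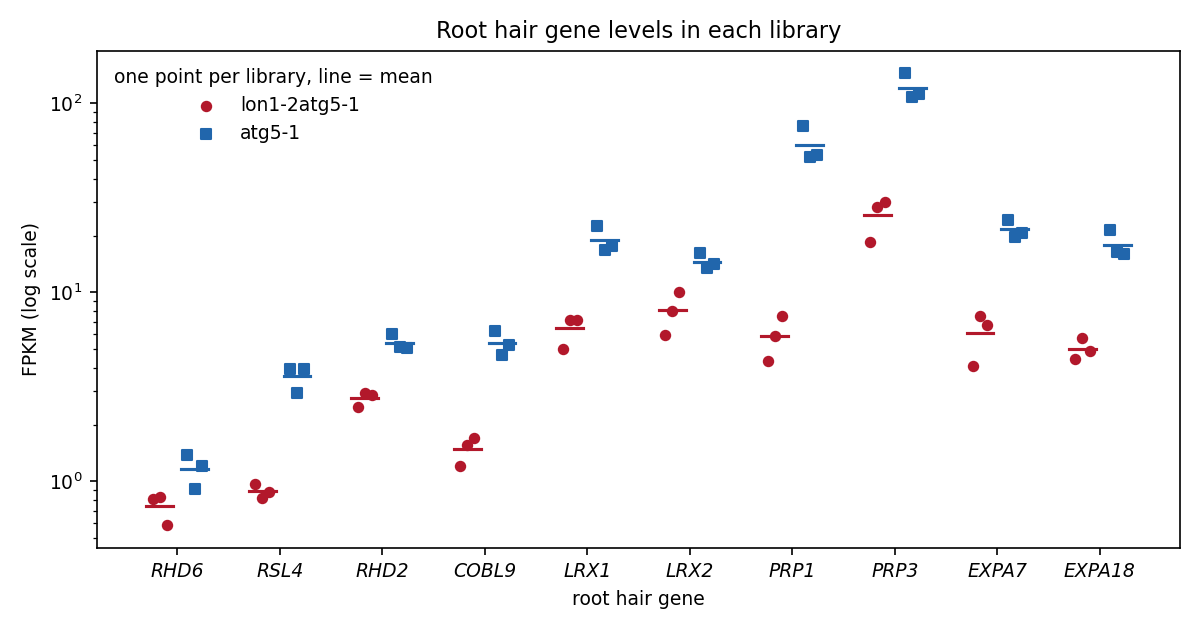
Level of each root hair gene in FPKM on a log axis, with 1 point per library and a line at the mean of 3 libraries, *lon1-2atg5-1* on the left of each pair and *atg5-1* on the right. The groups do not overlap in any of the 10 genes, and the gap is widest for PRP1, with a mean of 5.89 FPKM in *lon1-2atg5-1* against 60.4 FPKM in *atg5-1*, and narrowest for RHD6, with 0.743 against 1.16 FPKM.

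RHD6 and RSL4 encode the bHLH factors. RHD6 (AT1G66470, chr1:24795214-24797015 in TAIR10.1) promotes the start of hair formation. It had 26, 26 and 20 counts in *lon1-2atg5-1* libraries, against 45, 29 and 38 in *atg5-1* libraries, or 0.743 ± 0.136 and 1.16 ± 0.231 FPKM (SD, n = 3 each). The counts are low, and the nearest libraries of the genotypes were 26 and 29 counts. Its log2 fold change of −0.62 ± 0.24 did not pass the test, with an adjusted p of 0.0586. RHD6 was called lower with at least 10 counts required in every library, at an adjusted p of 0.0466, and without replicate 2 of *atg5-1*, at 0.0476. It was not called by DESeq2, at 0.125, or without any other single library, at up to 0.173.

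RSL4 (AT1G27740, chr1:9654475-9656089) acts downstream of RHD6, and its amount sets how long a hair grows. The libraries of *lon1-2atg5-1* had 29, 24 and 28 RSL4 counts, against 121, 87 and 116 in those of *atg5-1*. The mean level was 0.885 ± 0.0746 FPKM in *lon1-2atg5-1* and 3.59 ± 0.575 FPKM in *atg5-1*. The lowest *atg5-1* library stood far above the highest of *lon1-2atg5-1*, and RSL4 fell by 1.99 ± 0.19 on the log2 scale (adjusted p = 9.65e-05). Per length, RSL4 stood at 1.19, 0.984 and 1.49 times the FPKM of RHD6 in *lon1-2atg5-1*, against 2.87, 3.20 and 3.25 times in *atg5-1*, so that the ratios did not overlap.

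RHD2 (AT5G51060, chr5:20757199-20762461) encodes the NADPH oxidase RBOHC, whose reactive oxygen keeps growth at the tip. Its levels were 2.49, 2.95 and 2.87 FPKM in *lon1-2atg5-1*, against 6.05, 5.16 and 5.05 FPKM in *atg5-1*. Libraries within a genotype lay close together, and RHD2 fell by 0.94 ± 0.11 on the log2 scale (adjusted p = 0.00026). Together with LRX2 and RHD6 it made up the 3 genes of the 10 that changed by less than 2-fold.

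COBL9 (AT5G49270, chr5:19971884-19974530) encodes a membrane-anchored protein of the COBRA family needed for tip growth. It had 1.20, 1.55 and 1.70 FPKM in *lon1-2atg5-1*, against 6.26, 4.64 and 5.25 FPKM in *atg5-1*. The fall was 1.82 ± 0.17 on the log2 scale (adjusted p = 9.62e-05).

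LRX1 and LRX2 encode leucine-rich repeat extensins, wall proteins that act together in hair cells. LRX1 (AT1G12040, chr1:4069992-4072681) had 5.03, 7.18 and 7.16 FPKM in *lon1-2atg5-1*, against 22.6, 16.7 and 17.7 FPKM in *atg5-1*. LRX2 (AT1G62440, chr1:23112933-23115293) had 5.98, 8.00 and 10.11 FPKM in *lon1-2atg5-1*, against 16.1, 13.4 and 14.1 FPKM in *atg5-1*. The groups were well apart for LRX1 and closer for LRX2. LRX1 fell by 1.52 ± 0.17 on the log2 scale (adjusted p = 0.000178). LRX2 fell by 0.82 ± 0.18 (adjusted p = 0.00577), and by 0.63 to 1.04 when each library was left out in turn, at adjusted p up to 0.0265. The annotated start of LRX2 is the start of its coding sequence, so its FPKM rests on a gene model without an untranslated leader.

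PRP1 and PRP3 encode proline-rich wall proteins, and PRP3 is known to shape the hair wall. PRP3 (AT3G62680, chr3:23182722-23184042) was the most abundant of the 10 genes in both genotypes. Its levels were 18.4, 28.3 and 30.0 FPKM in *lon1-2atg5-1*, against 144, 108 and 112 FPKM in *atg5-1*, and it fell by 2.21 ± 0.20 on the log2 scale (adjusted p = 7.8e-05). PRP1 (AT1G54970, chr1:20504901-20506504) had 133, 178 and 245 counts in *lon1-2atg5-1*, against 2401, 1581 and 1622 counts in *atg5-1*. In FPKM these were 4.31, 5.90 and 7.46 in *lon1-2atg5-1*, against 76.1, 51.9 and 53.3 in *atg5-1*. This was the widest gap of the 10 genes. PRP1 fell by 3.32 ± 0.22 on the log2 scale (adjusted p = 2.43e-05), so that its normalised count in *lon1-2atg5-1* was 10.01% of that in *atg5-1*. Among all genes tested it was number 70 in order of the log2 fold change, counted from the lowest.

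EXPA7 and EXPA18 encode alpha-expansins, proteins that loosen the wall, and both are used in hair cells. EXPA7 (AT1G12560, chr1:4276505-4277969) had 4.10, 7.46 and 6.73 FPKM in *lon1-2atg5-1*, against 24.3, 19.7 and 20.6 FPKM in *atg5-1*. EXPA18 (AT1G62980, chr1:23331563-23333246) had 4.45, 5.75 and 4.88 FPKM in *lon1-2atg5-1*, against 21.3, 16.3 and 16.0 FPKM in *atg5-1*. For both, the lowest *atg5-1* library was far above the highest *lon1-2atg5-1* library. EXPA7 had a log2 fold change of −1.79 ± 0.20 (adjusted p = 0.000199), and EXPA18 of −1.80 ± 0.14 (adjusted p = 4.69e-05). EXPA7 overlaps AT1G12570 on the opposite strand, and whether the counting used strand is not given in the sources used here. AT1G12570 had 19, 24 and 23 counts in *lon1-2atg5-1*, against 90, 82 and 80 counts in *atg5-1*, and its part in the EXPA7 value was not tested. EXPA18 overlaps AT1G62978, which had 0 counts in each of the 6 libraries.

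Levels per length changed their order between the genotypes. In *atg5-1*, PRP3 (121 FPKM) and PRP1 (60.4 FPKM) stood above all others without overlap, and EXPA7, LRX1, EXPA18 and LRX2 followed with means of 21.5, 19.0, 17.9 and 14.6 FPKM. In *lon1-2atg5-1*, PRP3 was again highest at 25.6 FPKM, but PRP1 at 5.89 FPKM lay among LRX2, LRX1, EXPA7 and EXPA18 at 8.03, 6.46, 6.10 and 5.02 FPKM. The libraries of neighbours in this group of 5 overlapped, so their order was not resolved. RHD2, COBL9, RSL4 and RHD6 were the 4 lowest in both genotypes, in that order by the mean. RHD2 and COBL9 overlapped in *atg5-1*, and RSL4 and RHD6 overlapped in *lon1-2atg5-1*.

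Ratios within a library remove any change that relatives share. PRP1 stood at 0.235, 0.209 and 0.248 times the FPKM of PRP3 in *lon1-2atg5-1*, against 0.528, 0.480 and 0.477 times in *atg5-1*. LRX1 stood at 0.842, 0.897 and 0.709 times LRX2 in *lon1-2atg5-1*, against 1.40, 1.25 and 1.25 times in *atg5-1*. Neither pair's ratio overlapped between the genotypes, and both ratios were lower in *lon1-2atg5-1*. The ratio of EXPA7 to EXPA18 overlapped, at 0.923, 1.297 and 1.38 in *lon1-2atg5-1*, against 1.14, 1.21 and 1.29 in *atg5-1*. Its mean log2 ratio was 0.24 in *lon1-2atg5-1* and 0.28 in *atg5-1*. Over these 3 pairs and RSL4 with RHD6, which was added after its values were seen, a two-sided exact permutation test gave p = 0.1 for each pair except the expansins, at p = 1.0. With 3 libraries against 3, 0.1 is the smallest p that can be reached, and adjusted over the 4 pairs it was 0.133. The exons of these relatives were 72.7% identical over 2135 aligned bases for LRX1 and LRX2, and 75.8% identical over 682 for EXPA7 and EXPA18. No member had an exon match of at least 90% identity over 100 bases to another gene.

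**Figure D2:**
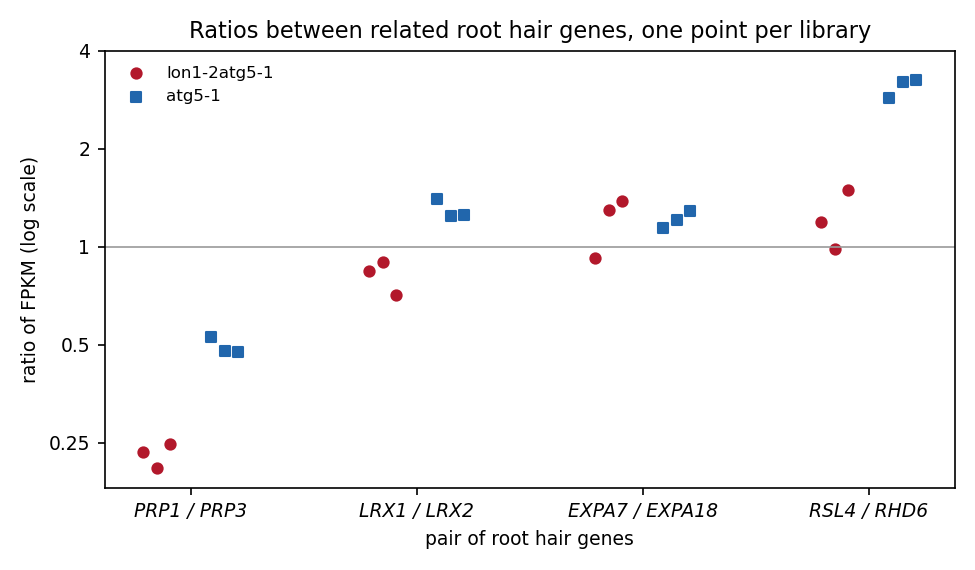
Ratio of FPKM between related root hair genes on a log axis, with 1 point per library, *lon1-2atg5-1* on the left of each pair and *atg5-1* on the right. PRP1 over PRP3, LRX1 over LRX2 and RSL4 over RHD6 do not overlap between the genotypes, while EXPA7 over EXPA18 lies at 0.923 to 1.38 in *lon1-2atg5-1* and 1.14 to 1.29 in *atg5-1*.

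Within each genotype the genes also varied together. Replicate 1 of *lon1-2atg5-1* was the lowest of its genotype for 8 of the 10 genes, with a median deviation of −0.35 on the log2 scale from the genotype mean. Replicate 1 of *atg5-1* was the highest of its genotype for 9 of the 10, with a median deviation of 0.21. The same libraries held the same places in a list of 24 other root hair wall genes, lowest for 21 and highest for 23 of them. Replicate 1 of *lon1-2atg5-1* was also lowest for 8 of 13 shoot genes and 10 of 19 tested genes of other root tissues. Its median deviation was −0.31 for the wall genes, −0.07 for the shoot genes and −0.05 for the genes of other root tissues. Its place was thus lower in the root hair lists than in the others shown here. Replicate 1 of *atg5-1* was lowest for 12 of the 13 shoot genes and highest for 8 of the 19. Shares over all genes are not given here. All 9 called genes stayed called when any library was left out. Without replicate 1 of *lon1-2atg5-1* the median of the 10 log2 fold changes was −1.61, and without replicate 1 of *atg5-1* it was −1.69.

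Other genes of the pathway were counted in lists, which were also chosen with earlier results of these data known. Beside each list, 13.7% of all genes tested were called lower and 14% were called higher. Among 7 other root hair bHLH genes, 5 were tested and 3 were called lower, with a median log2 fold change of −1.04. RSL2, which acts beside RSL4, fell by 1.04 ± 0.15 (adjusted p = 0.000784), and LRL3 fell to 40.7% of its *atg5-1* level (adjusted p = 0.00143). RSL5 had 2, 1 and 0 counts in *lon1-2atg5-1*, against 32, 27 and 21 counts in *atg5-1*. Its summed level in *lon1-2atg5-1* was 3.77% of that in *atg5-1* (exact 95% interval 0.761% to 11.4%, counting error only). RSL1, the partner of RHD6, was below the filter, with 0, 3 and 2 counts in *lon1-2atg5-1*, against 13, 10 and 5 counts in *atg5-1*. LRL2 had a log2 fold change of 0.21 ± 0.13 and did not pass the test (adjusted p = 0.200).

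Among 12 genes that pattern the root epidermis, 5 were called lower and none was called higher, at a median of −0.63. Of their *atg5-1* levels, *lon1-2atg5-1* had 37.8% for GL2, 40.3% for MYB23, 52.1% for ETC3, 56.9% for JKD and 58.5% for CPC. GL2 represses hair genes in hairless cells and CPC promotes the hair fate. In which cells their RNA was lower cannot be read from whole seedlings. WER, which specifies hairless cells, had −0.44 ± 0.26 and did not pass (adjusted p = 0.186). Without replicate 3 of *atg5-1*, 3 of the 12 were called lower. GL2 shares 198 exonic bases with AT1G79850, which overlaps it, and the part of that gene in the GL2 value was not tested.

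Among 22 genes of tip growth, 12 were called lower and 1 was called higher, at a median of −0.77. The furthest were PIP5K3, a lipid kinase of the hair tip, at −1.77, the kinesin ARK1 at −1.72, the receptor-like kinase PERK13 at −1.70 and the syntaxin SYP123 at −1.54. Another 8 passed the adjusted p with a fall of less than 1.5-fold, among them ACT2, FER and ROP4, which are used in many cell types. Lower at an adjusted p under 0.05 were thus 20 of the 22, against 25.8% of all genes tested. OXI1, a kinase activated by oxidative stress, was called higher, with 301, 169 and 102 counts in *lon1-2atg5-1*, against 81, 77 and 64 counts in *atg5-1*. Its libraries of *lon1-2atg5-1* were widely spread, and the call was lost without replicate 3 of *atg5-1*. Part of PERK13 is near-identical to AT1G70450, so its counts are uncertain. ARK1 and SYP123 share 180 and 295 exonic bases with genes that overlap them on the opposite strand. The part of those genes in their values was not tested.

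Among the 24 other wall genes of root hairs, 23 were called lower and none was called higher, at a median of −2.02. XTH26, XTH13 and XTH12, enzymes that cut and rejoin xyloglucan, stood at −3.55, −3.04 and −2.98, and RHS17 at −2.76. The exception was PRX1, at −0.08 ± 0.79, with 73, 7 and 6 counts in *lon1-2atg5-1*, against 39, 26 and 26 counts in *atg5-1*. A stretch of 1492 of its 2478 exonic bases is identical in AT1G05250, and without replicate 1 of *lon1-2atg5-1* its log2 fold change was −2.18. PRP1 among the 10 genes and XTH26 in this list thus marked the low ends of the wall genes.

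**Figure D3:**
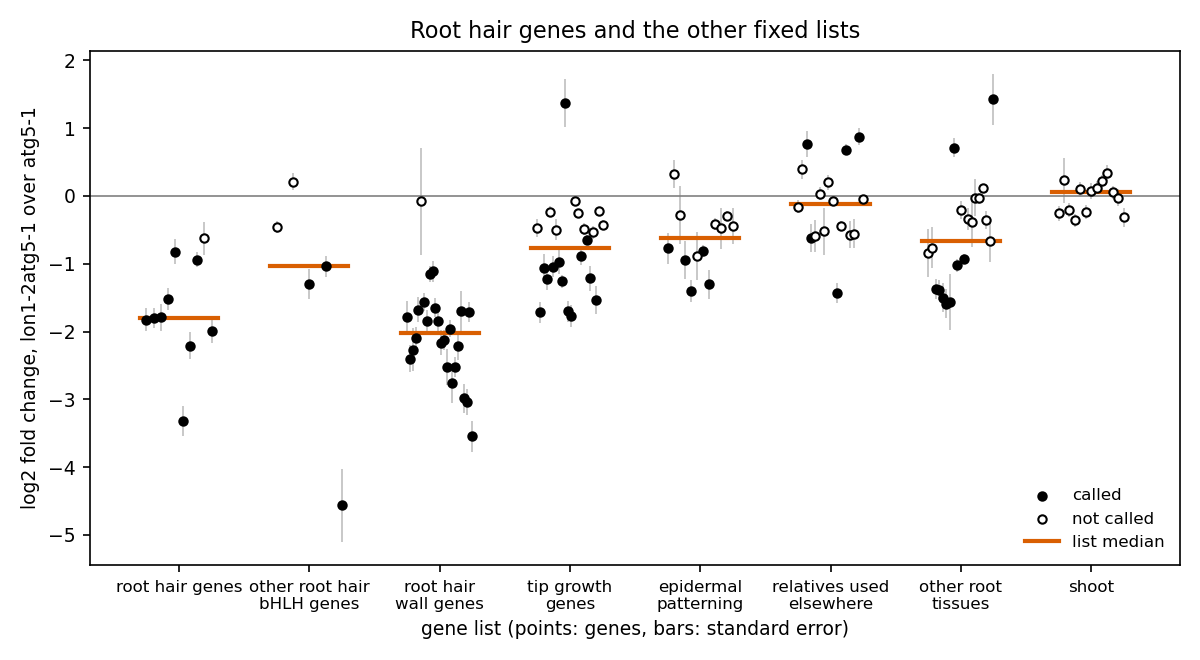
Log2 fold change of *lon1-2atg5-1* over *atg5-1* for each tested gene of 8 lists, with bars for the standard error, filled points for called genes, open points for the rest and a line at each list's median. The medians are −1.79 for the 10 root hair genes and −2.02 for the other root hair wall genes, against −0.11 for relatives used elsewhere and 0.05 for shoot genes.

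Relatives of the 10 genes that serve mainly outside root hairs were read beside them. Of 17, 16 were tested, 2 were called lower and 3 were called higher, at a median of −0.11, with 13.7% of all genes tested called lower and 14% called higher, so these shares were near the background. RBOHD, the NADPH oxidase of defence responses, was higher by 0.87 ± 0.13 and RBOHF had −0.05 ± 0.07 (adjusted p = 0.587), beside −0.94 for RHD2. PRP4 was higher by 0.68 ± 0.08, at 39875, 37823 and 37755 counts in *lon1-2atg5-1*, against 23626, 23780 and 24871 counts in *atg5-1*. PRP2 had −0.44 ± 0.07, a fall of less than 1.5-fold that passed the adjusted p. LRX3, a wall extensin used outside root hairs, had 6058, 8004 and 18303 counts in *lon1-2atg5-1*, against 13814, 17206 and 15333 counts in *atg5-1*, and did not pass (adjusted p = 0.239). LRX6 and EXPA14 were called lower, at −1.43 and −0.62, and EXPA10 higher, at 0.76. The count of relatives called lower moved with single libraries. It was 5 without replicate 2 of *atg5-1*, 4 without replicate 3 of *lon1-2atg5-1*, and 1 without replicate 1 or 2 of *lon1-2atg5-1* or replicate 1 or 3 of *atg5-1*.

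Markers of other cell types were read beside these values. The 9 other root hair markers were all called lower, with sums of 86.6 to 116 FPKM in *lon1-2atg5-1*, against 349 to 500 FPKM in *atg5-1*. Of 7 endodermis markers 6 were called lower, with sums of 23.6 to 25.0 FPKM in *lon1-2atg5-1*, against 50.5 to 65.2 FPKM in *atg5-1*. The 5 Casparian strip genes CASP1 to CASP5 were among them, at −1.37 to −1.59. The endodermis marker not called was MYB36, at −0.21 ± 0.13 (adjusted p = 0.217). Of 3 markers of hairless epidermal cells 2 were called lower, with sums of 4.10 to 4.58 FPKM in *lon1-2atg5-1*, against 8.27 to 10.07 FPKM in *atg5-1*. None of 5 genes listed as root meristem markers (PLT1, PLT2, WOX5, SCR and SHR) was called lower, and 1, WOX5, was called higher. Their sums were 17.9 to 19.6 FPKM in *lon1-2atg5-1*, against 17.0 to 19.4 FPKM in *atg5-1*. Most of this sum was SCR, at 14.8 ± 0.851 FPKM in *lon1-2atg5-1* and 14.0 ± 0.553 FPKM in *atg5-1* (SD, n = 3 each). The sum therefore says little of the other 4 or of the meristem. Whether SCR and SHR mark the meristem alone was not tested. The 4 root cap markers, 3 of them tested, gave no call, with sums of 1.45 to 2.07 FPKM in *lon1-2atg5-1*, against 2.11 to 3.19 FPKM in *atg5-1*. None of 12 photosynthetic markers was called, with sums of 46427 to 51034 FPKM in *lon1-2atg5-1*, against 46227 to 48565 FPKM in *atg5-1*. No marker was at 0 in every library, and the part of the share of root tissue in the root hair values was not tested. Over all 21 genes of other root tissues, of which 19 were tested, 7 were called lower and 2 were called higher, at a median of −0.66. The genes called higher were WOX5 and CO2, a gene of the root cortex. CO2 had 324, 350 and 441 counts in *lon1-2atg5-1*, against 267, 192 and 227 counts in *atg5-1*, and was higher by 0.71 ± 0.14 on the log2 scale (adjusted p = 0.00334).

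Over the 6 libraries, the genes whose log2 CPM was most like the mean of the 10 root hair genes were AT4G26010, AT1G29179 and NET4A, with Pearson correlations of 0.9996, 0.9996 and 0.9992. AT4G26010 encodes the peroxidase PRX44 and had a log2 fold change of −1.84, while NET4A had −0.60. PRX44 shares 153 exonic bases with AT4G26020, which overlaps it on the opposite strand, and the part of that gene was not tested. The points share the gap between genotypes, and 201 of 20147 genes had a correlation above 0.99, so these genes are 3 of many.

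Many root hair genes share a short promoter sequence, the root hair element, which RSL4 is known to bind. Windows of 250 bases before to 50 bases after the annotated start were searched for it on both strands. It was found in 5 of the 10 genes and in 238 of 27443 windows of all genes (0.867%). The element is defined as a sequence that root hair genes share. Its share in any list of root hair genes is therefore a description, not a test. The 5 were LRX1, PRP1, PRP3, EXPA7 and EXPA18, all wall or expansin genes, and neither bHLH gene nor RHD2, COBL9 or LRX2 held a match. Log2 fold changes ranged from −3.32 (PRP1) to −1.52 (LRX1) with the element, and from −1.99 (RSL4) to −0.62 (RHD6) without it, so the ranges overlapped. Whether the element has a part in the fall was not tested. Each match is read 5′ to 3′ on its own strand. Capitals mark the TG and the 5 bases ending in CACG, with 3 or 4 free bases between.
LRX1 (chr1:4069899-4069914, opposite strand to the gene): aactTGgacGCACGtt
PRP1 (chr1:20504772-20504788, opposite strand): atagTGttatGCACGat
PRP3 (chr3:23182555-23182571, opposite strand): taagTGtaatGCACGat
EXPA7 (chr1:4276427-4276443, same strand): atagTGatccGCACGta
EXPA18 (chr1:23331523-23331538, same strand): aacaTGaacGCACGtc
EXPA18 (chr1:23331568-23331584, same strand, after the start): atagTGtttcTCACGtt
Before the start, the matches began at 40 bases in EXPA18, 78 in EXPA7, 93 in LRX1, 129 in PRP1 and 167 in PRP3. A match is a run of letters, not a shown binding site.

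**Figure D4:**
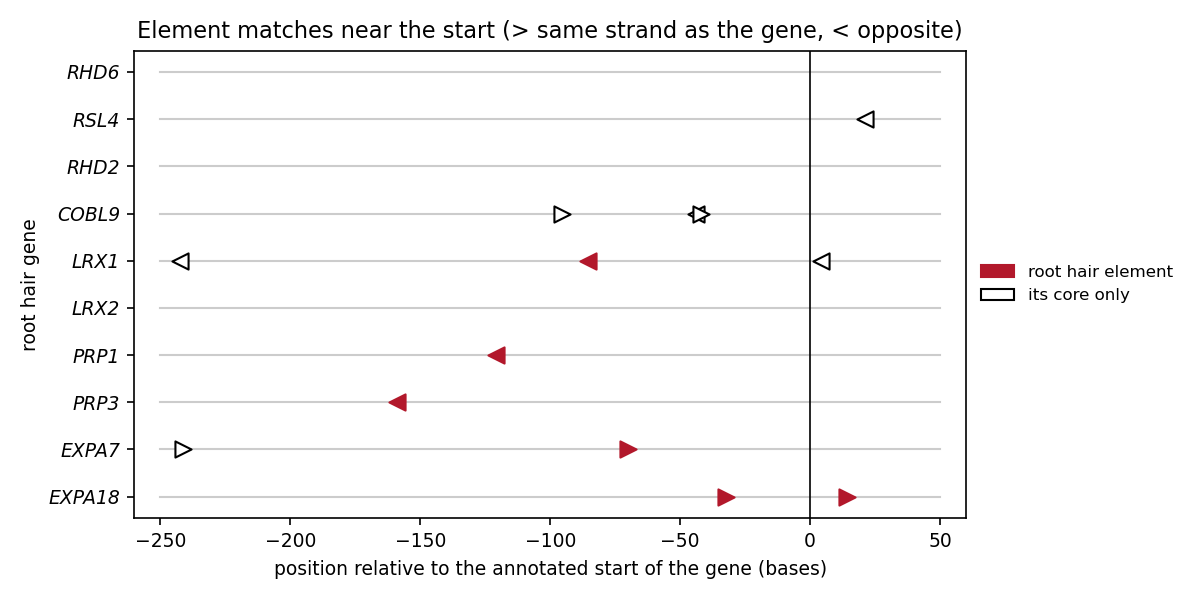
Position of each match to the root hair element (filled) and to its core alone (open) in the window from 250 bases before to 50 bases after the annotated start of the 10 root hair genes, in bases, with arrowheads for the strand. The element is in 5 windows, within 167 bases before the start, and EXPA18 has another match after it.

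The sequences before the start of PRP1 and PRP3, the genes with the largest falls, and of EXPA7 are given in full from TAIR10.1 on the strand of the gene, with the element in capitals as it lies on that strand.
PRP1 (chr1:20504651-20504900): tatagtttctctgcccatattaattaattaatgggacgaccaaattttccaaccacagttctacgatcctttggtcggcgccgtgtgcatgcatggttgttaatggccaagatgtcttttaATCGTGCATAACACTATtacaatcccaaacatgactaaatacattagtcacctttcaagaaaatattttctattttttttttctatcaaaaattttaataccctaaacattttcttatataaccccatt
PRP3 (chr3:23182472-23182721): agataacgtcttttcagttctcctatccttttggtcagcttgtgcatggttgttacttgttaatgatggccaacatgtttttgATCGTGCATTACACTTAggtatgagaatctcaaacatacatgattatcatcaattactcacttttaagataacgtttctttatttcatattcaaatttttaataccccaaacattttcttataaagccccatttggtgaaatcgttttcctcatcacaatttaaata
EXPA7 (chr1:4276255-4276504): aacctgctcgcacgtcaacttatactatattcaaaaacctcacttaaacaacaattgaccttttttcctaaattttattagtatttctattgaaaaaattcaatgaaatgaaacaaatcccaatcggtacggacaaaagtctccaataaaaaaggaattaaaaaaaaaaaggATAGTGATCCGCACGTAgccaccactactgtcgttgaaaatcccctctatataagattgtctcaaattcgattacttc
The windows of PRP1 and PRP3 hold the element in the same orientation, and their longest shared run is 15 bases, 25 bases before the start in PRP1 and 59 in PRP3. For LRX1 and LRX2 it is 9 bases, and LRX2 holds no element in its window. That window is counted from the start of the LRX2 coding sequence, so an element further upstream would be missed.

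On the strand of the gene alone, 2 of the 10 genes and 129 of all genes (0.470%) held the element. The core, TGNNNNCACG or TGNNNNNCACG on either strand, which lies within the element and was searched after the data were seen, was in 7 of the 10 genes and in 10.8% of all windows. It added COBL9 and RSL4, the match in RSL4 lying after the start. CACGTG, a palindrome bound by many bHLH factors and also searched after the data were seen, was in none of the 10 windows and in 7.68% of all. Among the other wall genes of root hairs, 6 of 24 (25.0%) held the element, as did 1 of 22 tip growth genes and none of the other bHLH genes, patterning genes, relatives used elsewhere, other root genes or shoot genes. Outside the 10 root hair genes, 169 tested genes held it, and 28.4% of them were called lower and 14.2% higher, against 13.6% and 14.0% of 19977 tested genes without it. Without the 6 listed wall genes the share called lower was 25.8% of 163, at a median log2 fold change of −0.04. Root hair genes outside the lists can remain among the 163, so this share too is a description, not a test.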

How the data were processed

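Per the labels and the study's methods, RNA of seedlings was made into stranded mRNA libraries, and paired reads were trimmed with Trimmomatic, aligned with HISAT2 and counted per gene with HTSeq. The deposited values are raw counts per gene and FPKM, for which the authors name Cufflinks. In the files, however, FPKM equalled count over exonic length and total count, with lengths within 1 base of TAIR10.1 for all 23819 genes with a count. After filterByExpr and TMM scaling, edgeR 4.0.16 (R 4.3.3) tested the counts by quasi-likelihood, with Benjamini-Hochberg adjustment over 20157 genes. Each standard error is the size of the log2 fold change divided by the root of its F, and it can be too small at low counts. The 10 root hair genes and all lists were chosen with earlier results of these data known. Of the other lists, up to 4 called genes with the largest change in each direction and the closest relatives of the 10 were named. Further names (WER, LRL2, PRX1, ACT2, FER, ROP4, MYB36 and the rest of the called patterning and CASP genes) were added after their values were seen. The steps were tested on simulated counts. Promoter windows and sequences came from the RefSeq TAIR10.1 genome, and exons were compared with BLAST 2.17.0. Alternatives were DESeq2 1.42.0, limma 3.58.1 on log2(FPKM + 1) and log2(FPKM + 0.1), library size alone, no filter, at least 10 counts in every library, a replicate block, other call thresholds and each library left out. The labels say the 3 libraries of a genotype are biological replicates. Library pairs within a genotype differed beyond sampling noise, by a chi-square per degree of freedom of 12.6 to 33.1 in *lon1-2atg5-1* and 3.92 to 5.80 in *atg5-1*, so the double mutant libraries stood further apart.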

Additional observations from a re-analysis of the deposited data

How the results depend on the processing

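The 9 called root hair genes stayed called lower in all 14 alternative fits. RHD6 had a log2 fold change of −0.63 with at least 10 counts in every library and −0.31 with limma on log2(FPKM + 1), with or without the filter, each at an adjusted p under 0.05, and −0.76 to −0.49 as libraries were left out. With a fold change over 2, the genes called lower and higher numbered 1513 and 1327 over all genes, 2 patterning genes and 1 relative were lower, 0 relatives and 1 gene of other root tissues were higher. With no fold change threshold these were 5206 and 5575 over all genes, 20 tip growth genes and 4 relatives were lower, and 1 shoot gene was lower and 1 higher. limma on log2(FPKM + 1), with or without the filter, called 1 relative lower and 1 other root gene higher, as did at least 10 counts in every library for the other root genes. As libraries were left out, the counts were 3 to 7 patterning genes lower, 0 to 1 tip growth gene higher, and 1 to 5 relatives lower. The root hair element was in 2 windows on the strand of the gene only. The labels number the replicates and do not say whether same-numbered libraries share a batch. Deviations of same-numbered libraries correlated at −0.04, −0.12 and −0.01, and a shared batch was not tested. With the replicate block in edgeR the same 9 root hair genes were called, with RHD6 at an adjusted p of 0.101. Genes with few counts, such as RHD6, RSL1 and RSL5, limit what can be resolved, and 3 libraries per genotype cannot bring an exact permutation test below 0.1. No group had the 4 libraries that a search for outlying libraries needs.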
